A study of Rattus norvegicus with 48 samples.

Results

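The genes described here responded to a hindlimb cast in the soleus of both rat lines and, measured as a share of the library total, stayed within a set limit in the plantaris of either. They were chosen by measured values. Levels in CPM were estimated counts divided by the library total and scaled to 1000000, and the response D was the mean log2(CPM + 0.5) of the cast group minus that of its control group, by muscle and line. A member had a mean of at least 1 CPM over the 48 libraries, a soleus D of at least 0.8 or at most -0.8 in both lines, a plantaris D within 0.4 of 0 in both lines, and control levels in the muscles that differed by less than 2 on the log2(CPM + 1) scale. Of 31998 genes listed, 13647 reached the level, 259 passed the soleus limit in both lines, 46 of these also kept within the plantaris limit, and 31 met every criterion. Of the 31 members, 20 were lower and 11 higher in the cast soleus. ENSRNOG00000000321 was set aside by the rule.

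The libraries came from female rats 14 months old of generation 19 of 2 lines bred in opposite directions for their gain in running capacity with treadmill training, the low responders (LRT) and the high responders (HRT). All rats had been through that training earlier in life. In the hindlimb immobilization groups (HI) 1 hindlimb was held in a fiberglass cast for 3 d with the foot plantar-flexed, and the soleus and plantaris of that limb were taken after a puromycin injection. The control groups (CTRL) were separate rats without a cast, whose muscles were taken in the same way. There were 8 groups by muscle, line and treatment with 6 libraries in each, and both muscles came from the same 24 rats, whose libraries were treated as independent.

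The soleus is a postural muscle made mainly of slow fibres and is active whenever the animal stands, while the plantaris is mainly fast and is recruited more in brisk movement. Slow, oxidative fibres hold high amounts of chaperones, the proteins that fold and protect other proteins, and many of their genes depend on continuous activity and load. Serum response factor with its coactivators, the TEAD factors and the heat shock factors are known regulators of such genes in muscle.

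Library totals lay between 26822000 and 36374000 estimated counts (median 30438000), and RNA integrity numbers were 7.8 to 8.2 in HI soleus against 7.9 to 8.4 in CTRL soleus. Of 10 fibre-type markers fixed for a check of the muscles, 4 could be paired with a symbol. Atp2a1, the calcium pump of fast fibres, lay between 42.1 and 378 CPM in soleus and between 1436 and 2770 CPM in plantaris. Pvalb, the calcium buffer of the fastest fibres, lay between 0.135 and 39.3 CPM in soleus and between 587 and 2616 CPM in plantaris, so no library went against its muscle label. Car3, abundant in slow fibres, was higher in every soleus than in any plantaris library, while Pln overlapped between the muscles. In the soleus, 2 CTRL libraries stood apart on several members, LRT CTRL replicate 3 and HRT CTRL replicate 1. Without LRT CTRL replicate 3 the rule gave 30 members, 28 of them among the 31, and without HRT CTRL replicate 1 it gave 29, of which 26 were among the 31.

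Of the 31 members, 24 could be paired with a symbol, 18 of the lower and 6 of the higher genes, and 23 of these are protein coding. Identifiers were paired through the gene names in the published lists of changed genes, which cover 1149 (3.59%) of all identifiers, so a gene with a symbol here is one that those lists already held. Of the 24, 16 were matched to RefSeq promoter sequences by symbol and gene ID. The 250 bases upstream of the annotated start are printed for 3 chaperone genes of the lower group, because their letters hold the elements named for heat shock and for endoplasmic reticulum (ER) stress. The Hsph1 stretch is chr12:10427118-10427367, the Hspb6 stretch chr1:94934122-94934371 and the Hspa5 stretch chr3:38452766-38453015, all on the plus strand of GRCr8 and written 5′ to 3′. Capitals mark heat shock elements (GAANNTTC or TTCNNGAA) in Hsph1 and Hspb6 and the ER stress element (CCAAT, 9 bases of any kind, CCACG) in Hspa5.
Hsph1: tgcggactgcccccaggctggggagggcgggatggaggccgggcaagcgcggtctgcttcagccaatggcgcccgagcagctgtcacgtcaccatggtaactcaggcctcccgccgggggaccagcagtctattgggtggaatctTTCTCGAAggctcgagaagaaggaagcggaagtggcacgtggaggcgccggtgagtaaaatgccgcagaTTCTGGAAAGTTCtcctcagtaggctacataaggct
Hspb6: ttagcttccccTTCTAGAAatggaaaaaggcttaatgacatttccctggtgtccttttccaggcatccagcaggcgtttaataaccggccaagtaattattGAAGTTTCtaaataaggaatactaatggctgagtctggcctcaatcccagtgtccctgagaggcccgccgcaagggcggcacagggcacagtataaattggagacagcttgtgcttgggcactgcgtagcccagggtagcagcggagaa
Hspa5: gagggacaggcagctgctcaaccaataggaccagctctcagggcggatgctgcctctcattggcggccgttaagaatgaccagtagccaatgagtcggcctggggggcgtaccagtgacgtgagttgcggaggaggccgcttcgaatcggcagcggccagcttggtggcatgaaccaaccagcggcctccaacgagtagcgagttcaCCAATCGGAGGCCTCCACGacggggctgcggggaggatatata

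Hsph1 held 3 heat shock elements, of which the last 2 overlap at bases -36 to -24 from the start. Hspb6 held 2, at -239 to -232 and -149 to -142. The ER stress element of Hspa5 lay at -43 to -25. Over the 27457 gene promoters of the same length, searched on both strands, 13.2% held a heat shock element and 0.0765% the ER stress element. Among the 16 matched members 4 held a heat shock element, the other two being Nceh1 and Id1. All 4 are lower in HI, as are 12 of the 16 matched members. A run of 3 units of that element was in Hsph1 alone and in 0.597% of all promoters. The E-box CAGCTG was in 5 of the 16 and in 11.9% of all promoters, and TATAAA in 3 and in 13.1%. The M-CAT element of TEAD factors (CATTCC) was in 1 of the 16, Fah, and in 11.8% of all promoters. No match to the CArG box of serum response factor or to the MEF2 site was found in the 16 windows, against 412 and 157 of the 27457 promoters. These are matches of letters in a short window and were not tested as binding sites.

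Of the 20 genes lower in HI, 5 are chaperones. Hsph1, Hspb6, Dnaja4, Dnajb4 and Hspa5 all had lower group means in the cast soleus of both lines, by 0.82 to 1.12 on the log2 scale, and stayed within 0.40 of CTRL in plantaris by CPM of library totals. With library sizes scaled by TMM, which adjusts library totals for differences in composition, Hspb6 (-0.59 in LRT), Dnajb4 (-0.45 in LRT) and Dnaja4 (-0.43 in HRT) passed the plantaris limit and were no longer members. In bulk muscle, here and for every member, fewer cells of a type and less RNA per cell cannot be told apart. Hsph1 encodes HSP110, the nucleotide exchange factor that recharges HSP70. In LRT soleus it lay between 79.7 and 108 CPM in CTRL (median 85.1) and between 32.5 and 76.1 CPM in HI (median 40.8), a difference of -0.94 ± 0.21 (SE, n = 6 per group). In HRT soleus the range was 81.6 to 119 CPM in CTRL (median 105) and 31.5 to 84.6 CPM in HI (median 47.96), a difference of -1.09 ± 0.24. The LRT groups did not overlap, and in HRT 5 of 6 HI libraries lay below every CTRL library. In plantaris the difference was 0.40 ± 0.18 in LRT, in the opposite direction to the soleus and just inside the limit, and 0.08 ± 0.26 in HRT. With TMM-scaled library sizes these plantaris differences of Hsph1 were 0.17 in LRT and -0.07 in HRT.

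Hspb6, also called HSP20, is a small heat shock protein abundant in slow and cardiac muscle. In LRT soleus it lay between 284 and 377 CPM in CTRL (median 344) and between 82.6 and 279 CPM in HI (median 169), a difference of -1.07 ± 0.31. In HRT soleus CTRL ran from 297 to 1337 CPM (median 361) and HI from 128 to 287 CPM (median 221), a difference of -1.08 ± 0.38. Neither line's groups overlapped, but the top of the HRT CTRL range was replicate 1 alone, with the other 5 libraries at or below 385 CPM, and without that library Hspb6 left the member list. Hspb6 was lost in 9 of the 48 lists made without a library, and also with group medians. Its CTRL level in soleus exceeded that in plantaris by 1.98, next to the limit of 2.

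Dnaja4 and Dnajb4 encode J-domain proteins that hand clients to HSP70. Dnaja4 in LRT soleus lay between 206 and 495 CPM in CTRL (median 378) and between 97.9 and 354 CPM in HI (median 179.5), and in HRT soleus the medians were 364 and 179 CPM. The differences were -0.96 ± 0.36 in LRT and -0.98 ± 0.30 in HRT, and the groups overlapped in both lines. Dnajb4 in LRT soleus lay between 109 and 211 CPM in CTRL and between 40.8 and 108 CPM in HI, which did not overlap, with a difference of -1.12 ± 0.26. In HRT its difference was -0.82 ± 0.22, the smallest of the 20 lower genes and just inside the limit, and 5 of 6 HI libraries lay below every CTRL library. Hspa5 encodes BiP, the HSP70 of the ER. HRT soleus held between 140.5 and 236 CPM in CTRL (median 192) and between 74.4 and 137 CPM in HI (median 109.6), a difference of -0.83 ± 0.15. In LRT soleus the difference was -0.95 ± 0.37, where CTRL replicate 3 held 708 CPM against 153 to 224 CPM in the other 5 CTRL libraries, and HI ran from 82.2 to 144 CPM. Neither line's HI and CTRL libraries overlapped, and without LRT CTRL replicate 3 Hspa5 was no longer a member.

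The list of heat shock proteins and co-chaperones held 31 symbols, of which 11 could be paired and 5 are these members. Of the other 6, 5 were lower in LRT soleus and 3 in HRT soleus at an edgeR adjusted p under 0.05 over 16960 genes tested, where 6.58% and 8.23% of all genes were called lower. These 6 had a median fold change of -1.002 (LRT) and -0.96 (HRT) on the log2 scale, against 0.01 over all genes in both. Hspa1b, an inducible HSP70, fell by 2.64 (SE 0.62, edgeR adjusted p = 0.00347) in LRT and by 2.56 (SE 0.62, adjusted p = 0.00442) in HRT. Dnajb5 fell by 0.92 and 1.02, and Hspa2 by 1.00 and 1.25. Reads that Hspa1b, Hspa1l and Hspa2 may share with their paralogs were not separated here. In plantaris 1 of the 6, Dnajb5, was lower in LRT (fell by 0.61, adjusted p = 0.0314), where 13.6% of all genes were called lower, and 2, Dnajb5 and Hspa1l, in HRT, where 5.85% were. The paired genes come from lists chosen on these samples and are not independent evidence of a direction.

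**Figure D1:**
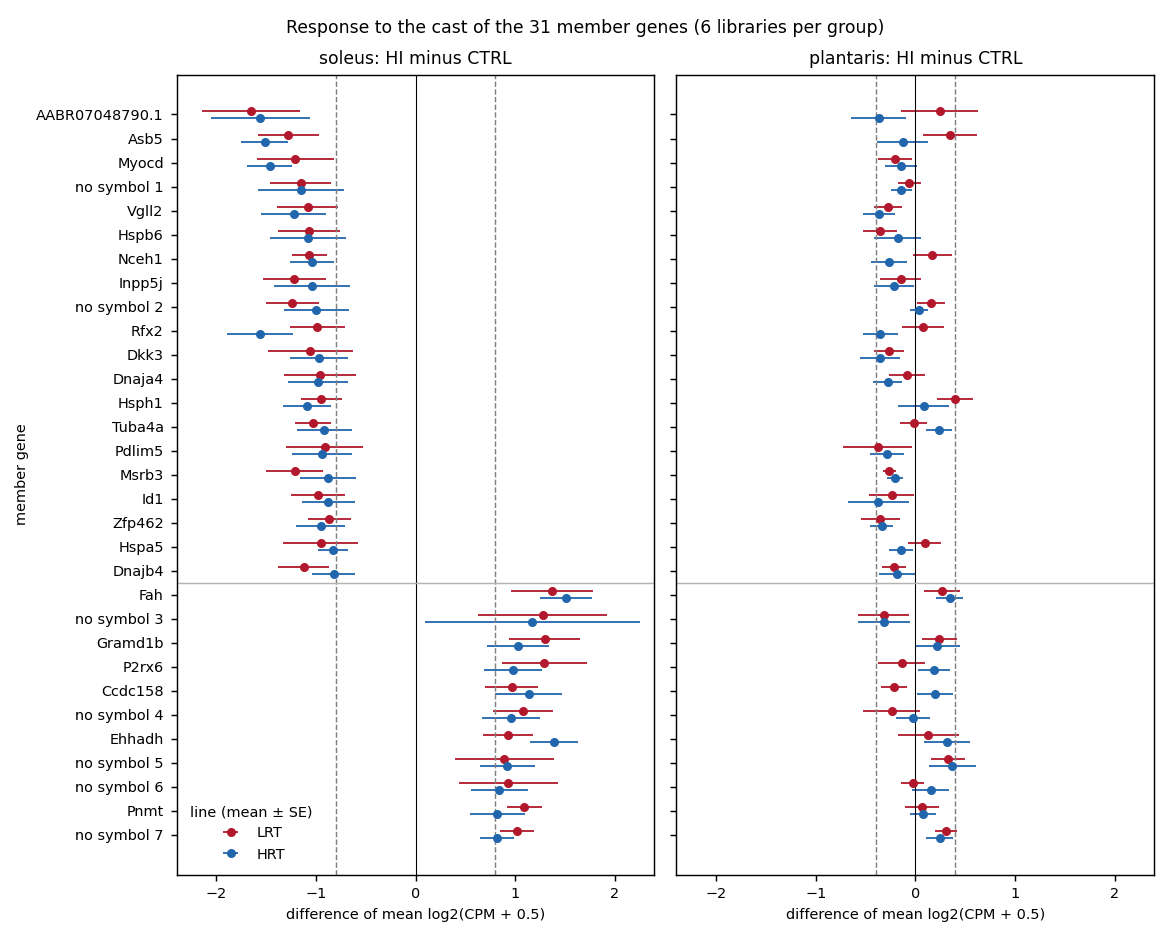
Difference between HI and CTRL in mean log2(CPM + 0.5) for the 31 members, soleus on the left and plantaris on the right, LRT in red and HRT in blue, with bars of 1 SE (n = 6 per group); dashed lines mark the limits of 0.8 and 0.4 that chose the genes, and genes without a symbol are numbered. Soleus values run from -1.66 to -0.82 for the 20 lower genes and from 0.82 to 1.51 for the 11 higher genes.

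Myocd, Vgll2, Rfx2, Id1 and Zfp462 are lower genes that encode transcription factors or their cofactors. They are placed side by side here after their values were seen and are not a list of their own. Myocd encodes myocardin, a coactivator of serum response factor. In LRT soleus it lay between 2.64 and 13.9 CPM in CTRL (median 6.82) and between 1.90 and 4.65 CPM in HI (median 2.12), a difference of -1.21 ± 0.38. In HRT soleus it lay between 5.49 and 13.9 CPM in CTRL (median 9.97) and between 2.11 and 3.63 CPM in HI (median 3.15), a difference of -1.46 ± 0.23. The HRT groups did not overlap, and in LRT 4 of 6 HI libraries lay below every CTRL library. In plantaris the medians of all 4 groups lay between 2.92 and 3.75 CPM, with the LRT HI soleus median below and the HRT HI soleus median within that range. Myocd stayed a member whichever of the 48 libraries was left out, but not with TMM-scaled library sizes, where its LRT plantaris difference was -0.41.

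Vgll2 encodes a cofactor of TEAD transcription factors that is found in skeletal muscle. LRT soleus libraries lay between 25.7 and 39.3 CPM in CTRL (median 29.2) and between 6.84 and 25.1 CPM in HI (median 14.3), a difference of -1.08 ± 0.31. In HRT soleus CTRL ran from 25.2 to 56.6 CPM (median 29.3) and HI from 8.24 to 23.8 CPM (median 14.4), a difference of -1.22 ± 0.33. The HI and CTRL libraries did not overlap in either line. Its CTRL level was higher in soleus than in plantaris, where the group medians lay between 9.11 and 13.2 CPM.

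Rfx2, a winged-helix transcription factor, differed by -0.99 ± 0.28 in LRT and by -1.56 ± 0.33 in HRT soleus, the widest gap between the lines among the 31 (0.58). In HRT the libraries did not overlap, with 5.56 to 24.2 CPM in CTRL and 1.81 to 4.29 CPM in HI, and the 24.2 CPM belonged to CTRL replicate 1. In LRT, CTRL replicate 3 held 2.61 CPM, below some HI libraries. Id1 encodes an inhibitor of basic helix-loop-helix factors and is a target of BMP signalling. It differed by -0.98 ± 0.27 in LRT and -0.87 ± 0.26 in HRT soleus, with 5 of 6 HI libraries below every CTRL library in each line. Its CTRL levels in the muscles were close, with medians of 12.7 and 11.7 CPM in soleus and 9.17 and 12.8 CPM in plantaris of LRT and HRT. Zfp462, a zinc finger gene, differed by -0.86 ± 0.22 in LRT and by -0.95 ± 0.24 in HRT soleus.

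Pdlim5 encodes a PDZ and LIM domain protein of the Z-disc. In HRT soleus it lay between 306 and 396 CPM in CTRL and between 73.5 and 276 CPM in HI, a difference of -0.94 ± 0.30 with no overlap. In LRT soleus 5 of the 6 HI libraries lay between 89.1 and 249.5 CPM, below the lowest CTRL library (271 CPM), while HI replicate 5 held 446 CPM, above the highest CTRL library (319 CPM). The LRT difference was -0.91 ± 0.39, and Pdlim5 was not called by edgeR in either line. Pdlim5 was lost in 9 of the 48 lists made without a library, and also with group medians and with TMM-scaled library sizes. The list of load-sensing sarcomere, actin and serum response factor genes had 18 paired members, of which Myocd and Pdlim5 belong to the 31. Of the other 16, 9 in LRT and 13 in HRT soleus were lower at an edgeR adjusted p under 0.05 and none was higher. Of all genes, 6.58% (LRT) and 8.23% (HRT) were called lower, and 7.36% and 7.95% higher. The 16 had median log2 fold changes of -1.14 and -1.07. In plantaris 1 was higher and 3 lower in LRT, where 15.1% and 13.6% of all genes were called higher and lower, and none was called in HRT, where 5.11% and 5.85% were. Here and in the lists that follow, a gene was paired only if the published lists of changed genes held it. Counts of called list genes are therefore not like for like with the shares of all genes, and nothing is read from them. Rrad, a small GTPase of muscle, fell by 2.53 (SE 0.65) in LRT and by 3.35 (SE 0.68) in HRT, and Ankrd2, a stretch-responsive ankyrin protein, gave -1.35 (SE 0.77) and -0.88 (SE 0.76) without passing the test in either line.

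Asb5, an ankyrin-repeat adaptor of ubiquitin ligases, had the largest difference of any lower protein-coding member when the smaller of its line values is taken. In LRT soleus it lay between 191 and 368 CPM in CTRL (median 271) and between 66.1 and 238 CPM in HI (median 94.1), a difference of -1.28 ± 0.31. In HRT soleus it lay between 186 and 327 CPM in CTRL (median 278) and between 71.6 and 161 CPM in HI (median 81.3), a difference of -1.52 ± 0.23. The HRT groups did not overlap, and in LRT 5 of 6 HI libraries lay below every CTRL library. CTRL plantaris lay between 78.9 and 112 CPM in LRT and between 83.8 and 124 CPM in HRT, so that the HI soleus medians were near the CTRL plantaris level. In plantaris, LRT HI ranged up to 209.9 CPM (difference 0.35 ± 0.28) and HRT HI from 70.9 to 210.1 CPM (difference -0.13 ± 0.26).

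Of the list of calcineurin, slow-fibre and neuromuscular genes, 11 were paired, and Asb5, Vgll2 and Hspb6 are members. Among the other 8, 4 were lower in LRT soleus and none higher, and in HRT soleus 3 were lower and 1 higher. Of all genes, the same 6.58% (LRT) and 8.23% (HRT) were called lower, and 7.36% and 7.95% higher. In plantaris 1 was higher and 2 lower in LRT, and 1 higher and 1 lower in HRT, against all-gene shares of 15.1% and 13.6% in LRT and 5.11% and 5.85% in HRT. Rcan1, a calcineurin target and regulator, fell by 2.22 (SE 0.56) in LRT and by 2.46 (SE 0.57) in HRT, and Colq, the collagen tail of synaptic acetylcholinesterase, fell by 1.72 (SE 0.40) and 2.20 (SE 0.41). None of the 31 members is among the 18 paired fast-fibre genes, of which 7 were higher in LRT soleus and 8 in HRT soleus, with none lower. Of all genes, 7.36% (LRT) and 7.95% (HRT) were called higher there, and 6.58% and 8.23% lower. In plantaris 2 of the 18 were higher and 8 lower in LRT, where 15.1% of all genes were called higher and 13.6% lower, and none was higher and 3 lower in HRT, where the shares were 5.11% and 5.85%. The rule bars genes whose CTRL levels differ by 2 or more between muscles, such as Pvalb, and genes that move in plantaris. That no paired fast-fibre gene is a member was thus set in part by the rule. The list of immediate early genes had 18 paired members with Id1 among the 31. Of the other 17, 9 were lower and none higher in LRT soleus, and 7 were lower and 1 higher in HRT soleus. Shares of all genes called lower were 6.58% (LRT) and 8.23% (HRT), and of those called higher 7.36% and 7.95%. The gene of the 17 that was higher in HRT soleus was Fosb, a subunit of the AP-1 factor, at 3.31 (SE 0.68, edgeR adjusted p = 0.000924) on the log2 scale. Fosb gave 1.64 (SE 0.62) in LRT soleus without passing the test. It also rose in plantaris, by 4.93 (SE 0.70) in LRT and by 3.92 (SE 0.68) in HRT. In plantaris 8 of the 17 were higher and none lower in LRT, where 15.1% of all genes were called higher and 13.6% lower. In HRT plantaris 4 were higher and 1 lower, where 5.11% were called higher and 5.85% lower. The list of clock genes had 10 paired members and none among the 31.

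Signalling genes lower in HI were Inpp5j and Dkk3. Inpp5j encodes a 5-phosphatase that acts on phosphoinositides and limits PI3K signalling. LRT soleus levels were between 1.90 and 5.62 CPM in CTRL (median 3.45) and between 0.483 and 2.44 CPM in HI (median 1.16), a difference of -1.22 ± 0.31. In HRT soleus CTRL ran from 0.639 to 6.40 CPM (median 3.15) and HI from 0.617 to 1.51 CPM (median 1.01), a difference of -1.04 ± 0.38, with overlap from 1 low CTRL library. Of the 9 other paired genes of insulin and growth signalling, 5 were higher and 2 lower in LRT soleus and 4 higher and 2 lower in HRT soleus, where 7.36% and 7.95% of all genes were called higher and 6.58% and 8.23% lower. In plantaris 4 were higher and 1 lower in each line, where 15.1% (LRT) and 5.11% (HRT) of all genes were called higher and 13.6% and 5.85% lower. These 9 too were paired through the published lists of changed genes. Dkk3, a secreted glycoprotein of the Dickkopf family, differed by -1.06 ± 0.43 in LRT and by -0.97 ± 0.29 in HRT soleus, with medians of 7.94 CPM in LRT CTRL and 2.62 CPM in LRT HI and of 11.0 and 5.76 CPM in HRT. Its groups overlapped in both lines.

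Nceh1, a hydrolase of cholesterol esters and neutral ether lipids, separated HI from CTRL in both lines. Its LRT soleus levels were between 46.3 and 76.1 CPM in CTRL (median 56.5) and between 21.7 and 42.2 CPM in HI (median 26.6), a difference of -1.07 ± 0.18. Its HRT soleus levels were between 60.2 and 70.4 CPM in CTRL (median 66.2) and between 15.9 and 44.8 CPM in HI (median 33.8), a difference of -1.04 ± 0.22. It was among the 5 members kept whichever library was left out, with Myocd, Inpp5j, Fah and Ccdc158. Of these 5, Nceh1 (-0.41 in HRT plantaris), Myocd and Ccdc158 (-0.44 in LRT plantaris) were no longer members with TMM-scaled library sizes. At a pseudocount of 2 Inpp5j and Ccdc158 were not members, and the differences of Inpp5j shrank to -0.75 in LRT and -0.65 in HRT and those of Fah, still a member, to 0.89 and 0.99.

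Tuba4a and Msrb3 complete the lower protein-coding genes, and with Zfp462 they are named outside the rule for named genes, after their values were seen, so that each is accounted for. Tuba4a, an alpha-tubulin, differed by -1.03 ± 0.18 in LRT and by -0.91 ± 0.27 in HRT soleus. With Zfp462 it is 1 of the 2 lower genes whose CTRL level was lower in soleus than in plantaris, so that the cast soleus lay farther from the plantaris level than CTRL soleus did. Msrb3, a methionine sulfoxide reductase, differed by -1.21 ± 0.28 in LRT and by -0.88 ± 0.28 in HRT soleus. The 2 lower genes without a symbol, ENSRNOG00000000129 and ENSRNOG00000014025, differed by -1.15 ± 0.31 and -1.24 ± 0.27 in LRT and by -1.15 ± 0.43 and -0.99 ± 0.32 in HRT. Their CTRL plantaris libraries were all at or below 0.488 CPM, a level at which the pseudocount holds the difference close to 0. In HRT CTRL soleus, replicate 1 held 8.40 CPM of ENSRNOG00000014025 against 1.73 to 2.655 CPM in the other 5 libraries, and without that library the gene was no longer a member.

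AABR07048790.1, annotated as a ribosomal RNA, had the largest soleus difference among the 31 by the same measure, -1.66 ± 0.49 in LRT and -1.56 ± 0.50 in HRT. In LRT, CTRL lay between 219 and 431 CPM and 5 HI libraries between 57.0 and 103 CPM, and HI replicate 6 held 493 CPM, above every CTRL library. In HRT, 5 HI libraries lay between 66.2 and 113 CPM and HI replicate 6 held 364 CPM, within the CTRL range of 137 to 672 CPM. The sources name different library kits, with and without ribosomal depletion, so how much ribosomal RNA each library should hold is not settled, and the part of depletion in these values was not tested.

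**Figure D2:**
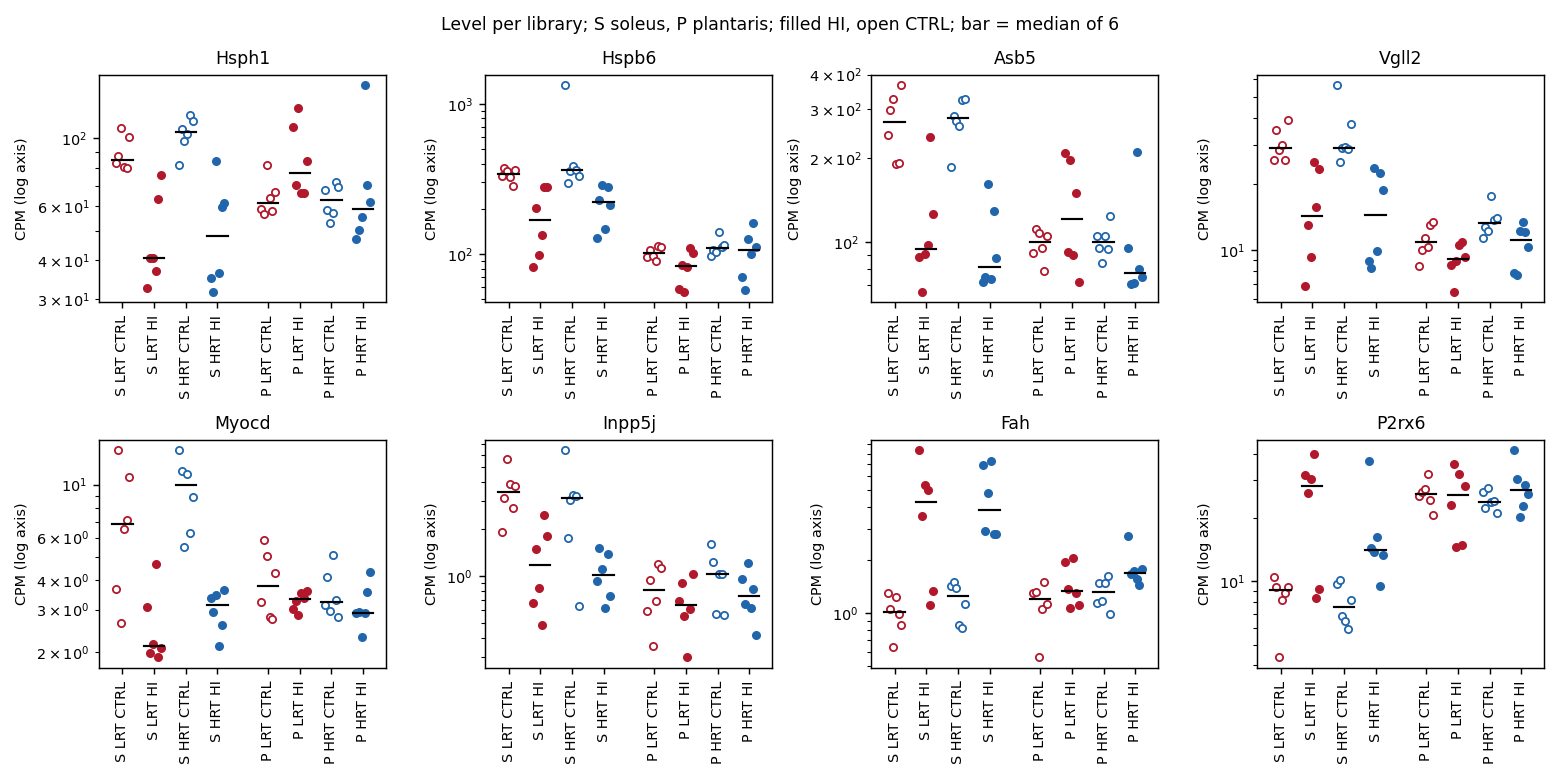
CPM of 8 members in each of the 48 libraries on log axes, soleus (S) on the left of each panel and plantaris (P) on the right, LRT in red, HRT in blue, HI filled and CTRL open, with a bar at the median of 6. HI soleus libraries spread widely, as for Vgll2 (6.84 to 25.1 CPM in LRT) and Fah (1.10 to 8.36 CPM in LRT).

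Among the 11 genes higher in HI, the named ones were Fah, Gramd1b, P2rx6, Ccdc158, Ehhadh and Pnmt, several of which encode metabolic enzymes. Fah encodes fumarylacetoacetate hydrolase, the last step of tyrosine breakdown. Its level in LRT soleus was between 0.641 and 1.30 CPM in CTRL (median 1.02) and between 1.10 and 8.36 CPM in HI (median 4.25), a difference of 1.37 ± 0.41. Its level in HRT soleus was between 0.820 and 1.49 CPM in CTRL (median 1.25) and between 2.80 and 7.22 CPM in HI (median 3.83), a difference of 1.51 ± 0.26. The HRT groups did not overlap, and in LRT 5 of 6 HI libraries lay above every CTRL library. Its CTRL plantaris medians, 1.21 and 1.32 CPM, were close to those of CTRL soleus, and the plantaris differences were 0.27 ± 0.18 in LRT and 0.34 ± 0.13 in HRT.

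Ehhadh encodes the bifunctional enzyme of peroxisomal fatty acid oxidation. HRT soleus held between 4.86 and 8.30 CPM in CTRL (median 7.33) and between 9.74 and 29.0 CPM in HI (median 19.4), without overlap, a difference of 1.39 ± 0.24. In LRT soleus the medians were 10.1 and 17.8 CPM and the difference 0.93 ± 0.25, with 5 of 6 HI libraries above every CTRL library. The CTRL plantaris medians were 21.7 CPM in LRT and 23.2 CPM in HRT, near the HI soleus levels. Pnmt encodes the enzyme that makes adrenaline from noradrenaline. It lay at 0.329 to 0.842 CPM in LRT CTRL and 1.23 to 2.79 CPM in LRT HI soleus, without overlap, a difference of 1.09 ± 0.18, and differed by 0.82 ± 0.28 in HRT. Pnmt was the member most often lost, in 13 of the 48 lists made without a library. Gramd1b, a protein that moves sterol between the plasma membrane and the ER, had medians of 7.46 CPM in LRT CTRL and 19.7 CPM in LRT HI soleus and differed by 1.30 ± 0.36 in LRT and 1.03 ± 0.31 in HRT, with overlap in both.

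The list of amino acid, ketone and lipid metabolism had 14 paired members, of which Fah, Nceh1, Gramd1b, Ehhadh and Pnmt are among the 31, Nceh1 being the only lower one of these 5. Of the other 9, 4 were higher and 3 lower in LRT soleus, and 4 higher and 4 lower in HRT soleus, by edgeR at an adjusted p under 0.05, where 7.36% and 7.95% of all genes were called higher and 6.58% and 8.23% lower. In plantaris 1 was higher and 1 lower in each line, beside the same shares of 15.1% and 5.11% of all genes higher and 13.6% and 5.85% lower. Prodh1, the first enzyme of proline breakdown, rose by 2.10 (SE 0.40) in LRT and by 1.56 (SE 0.39) in HRT soleus, and Oxct1, an enzyme of ketone body use, fell by 1.32 (SE 0.31) and 1.04 (SE 0.31). Oxct1 was also lower in plantaris, at -1.52 (SE 0.31) in LRT and -1.02 (SE 0.31) in HRT. Prodh1 gave 0.94 (SE 0.38) and 0.98 (SE 0.37) in plantaris without passing the test. These 9 too were paired through the published lists of changed genes.

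P2rx6 encodes a subunit of the ATP-gated P2X ion channels. In LRT soleus it lay between 4.36 and 10.4 CPM in CTRL (median 9.10) and between 8.33 and 39.9 CPM in HI (median 28.2), a difference of 1.29 ± 0.42. In HRT soleus it lay between 5.97 and 10.1 CPM in CTRL (median 7.52) and between 9.48 and 37.2 CPM in HI (median 14.0), a difference of 0.98 ± 0.29. In LRT 4 HI libraries lay above every CTRL library and in HRT 5 did, and the CTRL plantaris medians were 25.9 and 23.8 CPM. Ccdc158, a coiled-coil gene, differed by 0.96 ± 0.26 in LRT and 1.14 ± 0.33 in HRT soleus and was lower in CTRL soleus than in CTRL plantaris by 1.63.

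The remaining 5 higher genes had no symbol, and their soleus differences lay between 0.82 and 1.28. ENSRNOG00000050042 had the largest of these by the rule, 1.28 ± 0.65 in LRT and 1.17 ± 1.08 in HRT, but rested on some rats. In HRT soleus its HI values were 72.3, 23.1, 1.96, 28.5, 1.51 and 1.33 CPM against 1.19 to 14.8 CPM in CTRL, so 3 libraries were high and 3 lay within the CTRL range. In LRT 4 of 6 HI libraries lay above every CTRL library, the highest at 33.5 CPM.

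Most lower genes were more abundant in CTRL soleus than in CTRL plantaris, with 18 of 20 higher in soleus (median log2 ratio 1.13). The median ratio over all 13647 genes that reached the level was 0.13. For 16 of the 20 the HI soleus level lay closer to the CTRL plantaris level than the CTRL soleus level did. The higher genes had no such side: 5 of 11 were more abundant in CTRL soleus, the median ratio was -0.09, and 4 of 11 moved closer to the plantaris level. The rule limited this ratio, so these counts describe the members and carry no test. That limit took the lower genes from 35 to 20 and left the higher genes at 11, so it cut only the lower side. A fall in a gene more abundant in soleus also brings it toward the plantaris level, so the 16 and the 18 are not separate observations.

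**Figure D3:**
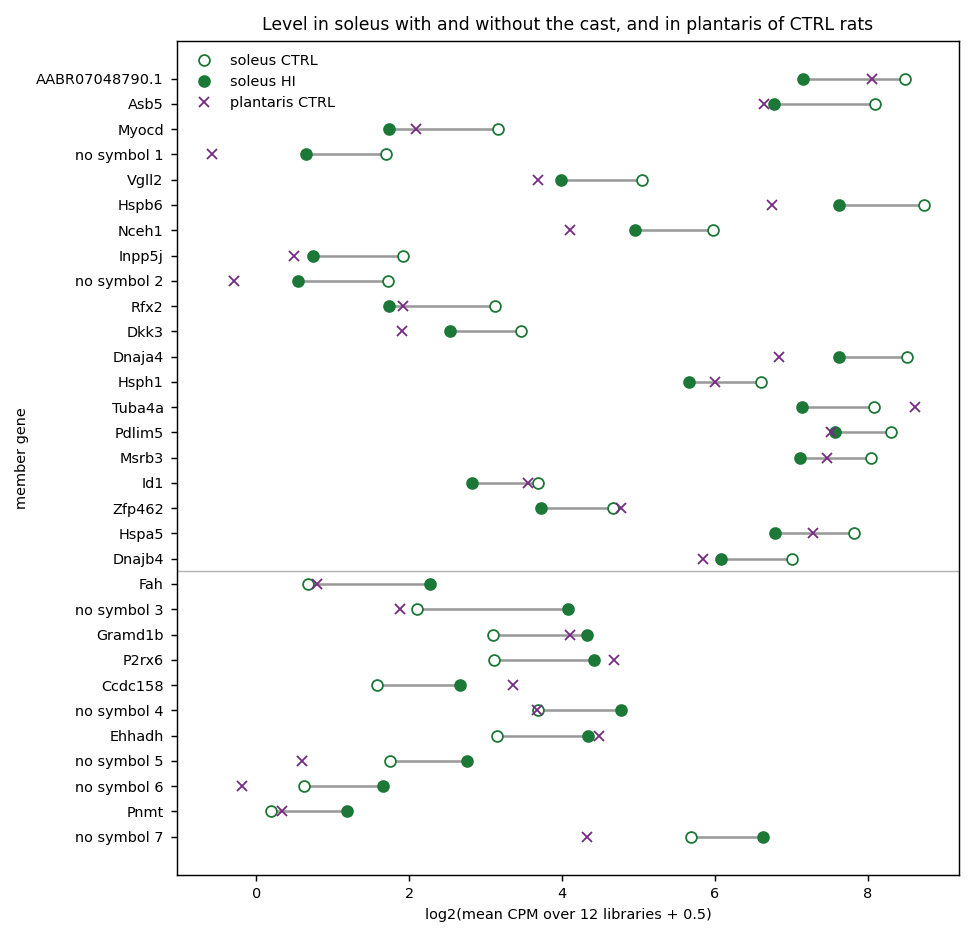
Mean level of each member on the log2(CPM + 0.5) scale in soleus of CTRL rats (open green), soleus of HI rats (filled green) and plantaris of CTRL rats (purple cross), each over the 12 libraries of both lines. For 16 of the 20 lower genes, above the grey line, the cast soleus lies nearer to the plantaris cross than the CTRL soleus does, against 4 of the 11 higher genes below it.

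HI and CTRL soleus did not overlap for 9 of the 20 lower genes in LRT and 8 in HRT, where 0.914% and 1.59% of the 16960 genes tested had HI wholly below CTRL. Among the 11 higher genes 2 in LRT and 3 in HRT did not overlap, against 3.31% and 3.25% of all genes with HI wholly above CTRL. In plantaris 0 of the 31 separated the groups in either line, where 13.2% of all genes had HI wholly above and 2.16% wholly below CTRL in LRT, and 10.8% and 2.34% in HRT. By edgeR at an adjusted p under 0.05, 29 members were called in LRT soleus and 28 in HRT soleus, where 13.9% and 16.2% of all genes tested were called. With each muscle fitted alone 15 were called in HRT soleus, where the share of all genes was 7.34%, and without replicate 3 19 were called in LRT soleus, where 806 genes were called in place of 2364. In LRT plantaris 1 member, Zfp462, was called lower, where 13.6% of all genes were called lower and 28.7% in either direction. In HRT plantaris 0 members were called by edgeR, where 11.0% of genes were. At an unadjusted p under 0.05 there were 2 in HRT plantaris, where 26.4% of all genes passed, and with each muscle fitted alone 2 were called, against 12.4% of all genes. The rule chose the genes with these contrasts, so nothing is read from these counts.

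The CPM of the rule divide by library totals, and this scaling bears on the plantaris limit. Against the TMM scaling used in edgeR, library totals raised the median HI difference of all genes by 0.14 in LRT soleus, 0.06 in HRT soleus, 0.24 in LRT plantaris and 0.16 in HRT plantaris. With TMM-scaled library sizes the rule gave 21 genes, of which 10 were among the 31: Asb5, Inpp5j, Hsph1, Tuba4a, Hspa5, Fah, Gramd1b, P2rx6, ENSRNOG00000000129 and ENSRNOG00000014025. The soleus differences kept their direction in all 31 under TMM. Of the other 21, 5 fell just short of the soleus limit and 16 passed the plantaris limit, as did Vgll2 with -0.50 in LRT and -0.51 in HRT. In the edgeR fit, which uses TMM, the members had a median plantaris fold change of -0.33 on the log2 scale in both lines, against 0.01 (LRT) and 0.02 (HRT) over all genes, and 23 (LRT) and 22 (HRT) of the 31 were negative. Their median absolute change was 0.33 in LRT and 0.34 in HRT, above the 0.26 and 0.20 of all genes. Whether these 16 keep within the plantaris limit thus depends on the scaling, and their place within it is a statement about CPM of library totals.

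The cast rats differed among themselves in how far the members lay from CTRL. The mean of the 20 lower genes, taken in each HI soleus library relative to the CTRL mean of its line, was -1.50, -1.18, -1.49, -1.20, -0.68 and -0.54 in LRT and -1.53, -1.36, -0.77, -1.37, -0.73 and -0.80 in HRT, in the order of the replicate numbers. The mean of the 11 higher genes in the same libraries was 1.66, 0.98, 1.63, 1.47, 0.21 and 0.68 in LRT and 1.85, 1.12, 0.56, 1.45, 0.54 and 0.79 in HRT. The libraries with the smallest fall, LRT replicates 5 and 6 and HRT replicates 3, 5 and 6, were also those with the smallest rise. In the same order, RNA integrity numbers were 7.9, 7.8, 8.1, 7.9, 8.2 and 8.2 in LRT HI soleus. In HRT HI soleus they were 8.2, 8.0, 8.2, 7.8, 7.8 and 8.2. The part of RNA integrity in this spread was not tested. CTRL soleus libraries lay between -0.15 and 0.27 for the lower genes and between -0.53 and 0.30 for the higher genes. In HI plantaris the same means lay between -0.42 and 0.07 and between -0.25 and 0.45.

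The 228 other genes past the soleus limit in both lines showed a like spread, with HI soleus means of -2.09 to -0.52 for those lower and 0.54 to 1.81 for those higher, and the same 5 libraries were the least changed among the lower genes. In HI plantaris, where the rule limited the members' differences, the other genes lay between -1.18 and -0.20 and between 0.51 and 1.00. Not every member followed this order. Over the 12 HI soleus libraries, taken relative to the mean of their group, the correlation of a member with the mean of the others of its direction ran from -0.30 to 0.95, and for 8 of the 31 it was under 0.4. These were Myocd, Zfp462 and Pnmt, which were negative, and Rfx2 (0.08), Id1 (0.23), ENSRNOG00000050042 (0.30), Dkk3 (0.32) and Hspa5 (0.35). The points share libraries and scaling, and the values are a description. For Pnmt in HRT soleus, HI replicate 3 was the highest at 3.31 CPM.

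**Figure D4:**
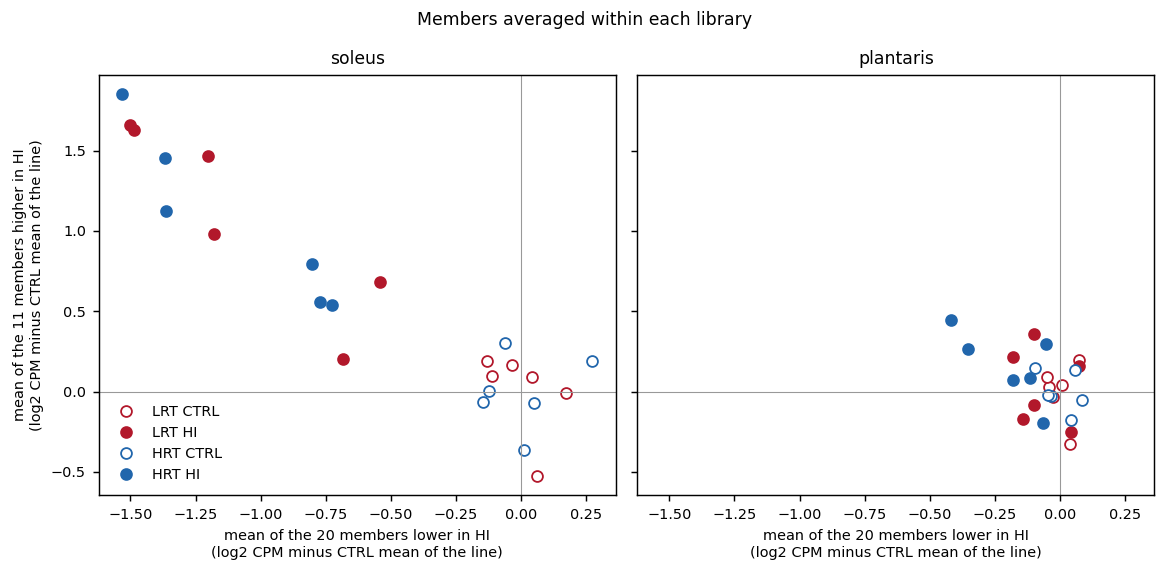
Each point is 1 library, with the mean of the 20 lower members on the horizontal axis and of the 11 higher members on the vertical axis, both as log2 difference from the CTRL mean of the line, soleus on the left and plantaris on the right. HI soleus libraries (filled) form a graded series from -0.54 to -1.53 on the horizontal axis, apart from CTRL (open, -0.15 to 0.27), while plantaris libraries stay between -0.42 and 0.08.

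Markers of other cell types were summed in each library beside the members. Of the marker lists fixed for this work, those of endothelial cells, adipocytes and Schwann cells had no paired gene and could not be measured here. The summed level of 6 of 9 erythrocyte markers had a median of 643 CPM (213 to 968) in LRT CTRL soleus and 1040.0 CPM (488 to 1585) in LRT HI, and of 315 CPM (160 to 647) in HRT CTRL and 1253 CPM (256 to 11180.0) in HRT HI. The top HRT HI value was replicate 5 alone, and the next was 1752 CPM. In plantaris the CTRL and HI medians were 340 and 322 CPM in LRT and 302 and 427 CPM in HRT. The summed level of 3 of 22 leukocyte markers was 2.03 to 4.19 CPM in LRT CTRL and 3.02 to 8.25 CPM in LRT HI soleus, and 1.75 to 5.19 against 3.93 to 18.2 CPM in HRT. Its CTRL and HI medians in plantaris were 2.23 and 3.165 CPM in LRT and 1.98 and 3.285 CPM in HRT. The single neutrophil marker paired of 7, S100a9, had CTRL and HI medians of 0.630 and 2.02 CPM in LRT and 0.537 and 3.60 CPM in HRT soleus. For plantaris they were 0.784 and 1.38 CPM in LRT and 0.944 and 2.53 CPM in HRT.

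Fibroblast markers, 8 of 12, summed to a median of 791 CPM (515 to 1075) in LRT CTRL and 413.5 CPM (222 to 1080) in LRT HI soleus, and of 1102 CPM (548 to 3294) in HRT CTRL and 764 CPM (499 to 1129) in HRT HI, with the top value in HRT CTRL replicate 1. Their soleus medians were thus lower in HI, as were the lower members. In plantaris the medians were 699 and 326 CPM in LRT and 919.6 and 393 CPM in HRT. They were lower in HI there too, where the rule kept the members within the plantaris limit. The single smooth muscle marker paired of 7, Cnn1, had medians of 2.02 and 1.35 CPM in LRT and 1.57 and 1.47 CPM in HRT soleus. Its plantaris medians were 0.709 and 0.76 CPM in LRT and 1.32 and 0.528 CPM in HRT. Satellite cell markers, 2 of 7 (Myod1 and Myog), summed to medians of 59.3 and 65.1 CPM in LRT and 61.0 and 65.9 CPM in HRT soleus. In plantaris these sums had medians of 28.9 and 85.2 CPM in LRT and 29.8 and 46.0 CPM in HRT. No listed marker that was paired was at 0 in all libraries. The part of other cells in the members' differences was not tested.

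The difference between the lines, taken as the mean of HI and CTRL, was not used to choose the genes and was tested across all genes with edgeR. In soleus 1 member was called, where 16.4% of genes tested were called, and in plantaris 0, where 5.28% were. At an unadjusted p under 0.05 the counts were 5 and 2 of the 31, where 30.4% and 21.2% of all genes passed. The member called was ENSRNOG00000015397, 1 of the higher genes without a symbol, named here after its values were seen. It was higher in LRT than in HRT soleus by 0.87 on the log2 scale (SE 0.24, 95% interval 0.39 to 1.36, edgeR adjusted p = 0.0103). In CTRL soleus it lay between 0.881 and 4.95 CPM in LRT (median 4.03) and between 1.08 and 2.78 CPM in HRT (median 2.25), and in HI soleus between 2.26 and 17.0 CPM (median 6.98) and between 2.33 and 7.52 CPM (median 4.34). In 5 of 6 LRT CTRL libraries it was above every HRT CTRL library, and in plantaris the line difference was 0.02 (SE 0.26). Over 16 other settings its adjusted p ranged from 0.00354 to 0.0687, and the call was lost without replicate 4 (0.0687) and with each muscle fitted alone (0.0510). Its place among the 31 was itself unsteady, since it was lost from the list in 11 of the 48 lists made without a library and with TMM-scaled library sizes, a pseudocount of 2 and group medians.

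Among the named members, Dkk3 was lower in LRT soleus by 0.50 (SE 0.22, edgeR adjusted p = 0.106) and Tuba4a higher by 0.34 (SE 0.15, adjusted p = 0.106), neither past the threshold. Dkk3 was called in 5 of the 16 other settings, with an adjusted p between 0.0284 and 0.463, and without replicate 4 its difference was -0.30. Tuba4a was called in soleus in 1 of the 16, with the replicate block, and its adjusted p there lay between 0.0487 and 0.261. It was higher in LRT plantaris by the same 0.34 (SE 0.15, adjusted p = 0.172). The median absolute line difference of the 31 members was 0.20 in soleus and 0.17 in plantaris, against 0.16 and 0.13 over all genes tested. A missed threshold does not show that the lines were alike: for the chaperone Hsph1 the 95% interval of the soleus line difference ran from -0.38 to 0.28, and for Hspb6 from -0.70 to 0.14.

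**Figure D5:**
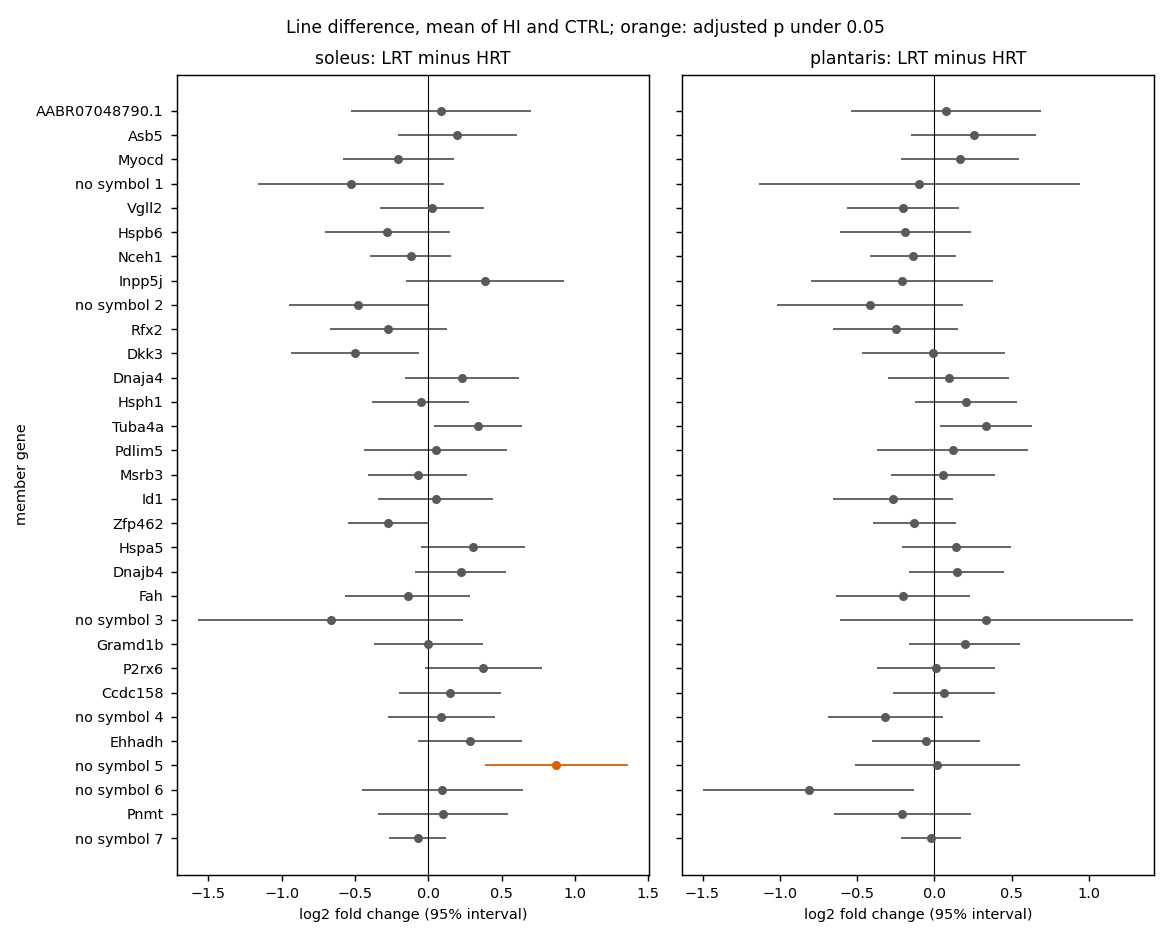
Log2 fold change of LRT against HRT, as the mean of HI and CTRL, for the 31 members in soleus (left) and plantaris (right), with 95% intervals from edgeR. The single orange point, ENSRNOG00000015397 at 0.87 in soleus (labelled no symbol 5), is the only one with an adjusted p under 0.05.

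The rule took genes that passed the same soleus limit in both lines, and how far their responses differed between the lines is given as a description. The soleus difference in LRT minus that in HRT had a median of -0.02 over the lower and 0.10 over the higher genes, and ranged from -0.46 for Ehhadh to 0.58 for Rfx2. At the edges of the rule, Dnajb4 (0.823) was the lower gene just inside the soleus limit and LOC102546683 (0.798) the one just outside, Hsph1 (0.3996) and Fam117a (0.424) were the nearest inside and outside the plantaris limit, and the nearest higher genes had 0.822 and 0.789.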

How the data were processed

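Gene-level values came from 48 libraries of soleus and plantaris. Per the labels and the published methods, the authors quantified reads with Salmon 0.9.1 against Ensembl Rnor_6.0 cDNA and ncRNA and summarised transcripts to genes with tximport, and the deposited values are estimated counts that need not be whole (34.0% were 0, and of the values above 0 only 0.000197% were exactly whole). Whether tximport scaled them by transcript length or abundance is not settled by these sources, so a CPM here may be a share of length-scaled counts and not of reads. The methods put the RNA integrity numbers higher than the lowest in the labels, and the labels' values were used. The labels name one TruSeq RNA kit and the methods another, stranded and with ribosomal depletion, so neither point is settled here, and reads shared by paralogs or antisense genes were not separated. No column of another series' samples was present.

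CPM were estimated counts scaled to a library total of 1000000. The members and gene lists were chosen with earlier results of these data known, so HI against CTRL calls, of members and of list genes paired through the study's lists for those contrasts, are descriptions, and the comparison between the lines is the test the rule did not use. For tests the counts were rounded and fitted with edgeR 4.0.16 (quasi-likelihood, TMM, filterByExpr, RNA integrity number as covariate, 8 groups), with Benjamini-Hochberg adjustment over 16960 genes and a threshold of 0.05, and 95% intervals of fold changes used the t distribution with 39 residual degrees of freedom. The study's methods name limma-voom, which was an alternative here (limma 3.58.1), as were DESeq2 1.42.0 (Wald test and size factors), no covariate, other filters, library totals, each muscle alone, a replicate block, each replicate left out and, added after the data were seen, limma-voom with the rat as a random effect. The rule was rerun with TMM-scaled library sizes, a pseudocount of 2, soleus limits of 0.6 and 1, a mean CPM of at least 5, group medians and each of the 48 libraries left out. The scripts were tested on simulated counts. Figures and tables were made in R 4.3.3 and Python 3.11.15.

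Named were the 10 lower and all 6 higher members with a symbol that had the largest smaller-of-both-lines difference, every member with a symbol in a gene list, any called between the lines, and at most 2 members in each direction without a symbol. Promoter stretches came from RefSeq (GRCr8), a different assembly from that of the counts, and the motifs were chosen after the values were seen. The precision of each value is given by its range over 6 rats and its SE, and 8 named members had no entry in the promoter table.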

Additional observations from a re-analysis of the deposited data

Results flagged for a closer look

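In each soleus group the level of every named member was looked at for a single library far from the other 5, by Dixon's ratio on the log2(CPM + 0.5) scale (the gap to the nearest library over the whole range, above its 95% critical value for 6 samples). Of 112 groups looked at, 11 (9.82%) held such a library, where chance gives about 5%. On the CPM scale 13 groups would.

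LRT CTRL replicate 3 stood apart on 4 members. It held 708 CPM of Hspa5 against 153 to 224 CPM in the other 5 libraries, 2.61 CPM of Rfx2 against 6.14 to 8.03 CPM, 4.36 CPM of P2rx6 against 8.14 to 10.4 CPM, and 0.881 CPM of ENSRNOG00000015397 against 3.40 to 4.95 CPM. HRT CTRL replicate 1 held 1337 CPM of Hspb6 against 297 to 385 CPM in the other 5 libraries, 24.2 CPM of Rfx2 against 5.56 to 9.54 CPM and 8.40 CPM of ENSRNOG00000014025 against 1.73 to 2.655 CPM. HRT CTRL replicate 5 held 396 CPM of Pdlim5 against 306 to 330.3 CPM.

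Replicate 6 of the cast soleus was high in each line for the ribosomal RNA gene AABR07048790.1, with 493 CPM in LRT against 57.0 to 103 CPM in the other 5 HI libraries and 364 CPM in HRT against 66.2 to 113 CPM. In LRT HI replicate 6 held 42.2 CPM of Nceh1 against 21.7 to 27.5 CPM in the others. The cause of these values was not tested.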

How the results depend on the processing

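The member list moved with its limits. A soleus limit of 1 gave 11 members (8 lower, 3 higher) and a limit of 0.6 gave 89 (55 lower, 34 higher). The higher members numbered 5 with TMM-scaled library sizes and 7 with a pseudocount of 2 or a mean CPM of at least 5. Leaving out single libraries gave 23 to 39 members, with 16 to 26 lower and 7 to 14 higher, and the 7 came without HRT HI soleus replicate 1. Group medians gave 41 members, 22 of them among the 31. Of 280 recomputed soleus differences of named members none changed sign, and 276 moved by less than the replicate spread.

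The counts of members called by edgeR moved too. Leaving out each replicate number gave 19 to 29 members in LRT soleus (19 without replicate 3) and 19 to 30 in HRT soleus, and with each muscle fitted alone there were 15 in HRT soleus, 4 in LRT plantaris and 2 in HRT plantaris, where 1207, 5084 and 2004 of all genes were called against 2744, 4862 and 1859 in the fit as reported. In LRT plantaris the count was 0 with library totals and 0 to 1 with replicates left out (0 without replicates 1 and 2), and in HRT plantaris 0 to 1 (1 without replicate 3). Between the lines in soleus, 2 were called with limma-voom, with or without the rat as a random effect, and with library totals. There were 0 with each muscle alone, and 0 to 2 with replicates left out (0 without replicate 4, 2 without replicate 6). Over all genes this line comparison called 2784 as reported, 1478 without replicate 4 and 3043 with the DESeq2 Wald test. In plantaris 0 members were called in every setting run. The all-gene line count there was 896 as reported, 313 without replicate 3 and 1189 with the DESeq2 Wald test. The counts over all genes moved as well: in LRT soleus 2364 genes were called in the fit as reported, 806 without replicate 3 and 3184 with library totals, and in HRT plantaris 1859, 357 without replicate 4 and 3019 with library totals. In HRT soleus they ran over the settings from 1207 with each muscle fitted alone to 3361 without the covariate, against 2744 as reported. In LRT plantaris they ran from 3428 without replicate 3 to 7010 with library totals, against 4862. Fewer samples leave each replicate-out fit less precise, and the cause of the other changes was not tested.

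All groups share replicate numbers. Within a muscle the numbers did not pair the libraries of different groups, which come from different rats: over 72 pairs of libraries the mean correlation of their deviations lay between -0.05 and 0.06 by group pair, and 9 matched their own number best. Between the muscles of the same line and treatment the mean correlation lay between 0.10 and 0.32 by group pair, and 22 of 24 soleus libraries matched the plantaris library of their own number best, a hint from the data that a number marks the same rat, which the labels do not state. The edgeR fit took these libraries as independent. Every comparison was between rats within 1 muscle. An alternative chosen after seeing the data, limma-voom with the rat as a random effect over 24 rats (consensus correlation 0.23), called 28 members in LRT soleus, 28 in HRT soleus, 1 in LRT plantaris and 0 in HRT plantaris, beside 2511, 2872, 4795 and 1883 of all genes, and gave ENSRNOG00000015397 an adjusted p of 0.0417 between the lines in soleus. With the replicate number as a block 31 members were called in LRT soleus, 30 in HRT soleus and 3 between the lines in soleus, while the counts over all genes went from 2364, 2744 and 2784 to 2707, 3003 and 2907. Depth limits the members near 1 CPM, such as Pnmt and Inpp5j, for which the thinnest library held 6 and 8 counts.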
